A study of Mus musculus with 61 samples.

Results

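The central and posterior genes of the mouse HoxA cluster were followed across stembryo development and across 8 mutant lines: Hoxa6, Hoxa7, Hoxa9, Hoxa10, Hoxa11 and Hoxa13. These 6 members were taken by symbol from the 55052 genes of the deposited table, by a rule that uses no measured value. Stembryos are aggregates of mouse embryonic stem (ES) cells that elongate after a pulse of Chiron, an agonist of Wnt signalling, and come to resemble a growing posterior body axis. The study asked how Hox genes are switched on in sequence and used edits at HoxD, on chromosome 2, to disturb that sequence there. None of the edits lies at HoxA, on chromosome 6, so the comparisons below follow a cluster whose own DNA was left intact.

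Each of the 61 RNA libraries was made from stembryos pooled per condition, and the labels give no other origin for a replicate, so the p-values measure the spread among these pools. The wild-type (wt) time course held 2 libraries at each of 8 stages, which ran from 72 h to 144 h after aggregation in steps of 12 h and ended at 168 h. Separate wt libraries, 4 at 96 h, 4 at 120 h and 2 at 144 h, were the stage-matched controls of the mutants. All mutants of a stage were compared with the same control libraries. The wt and most mutant lines were EmbryoMax 129/SVEV ES cells, with both alleles edited. Del(CBS1), Del(CBS2) and Del(CBS4) each lack 1 binding site of the chromatin protein CTCF in HoxD, Del(CBS1-2) lacks CBS2 in addition to CBS1, and Del(CBS1-5) lacks the sites CBS1 to CBS5. Del(d1-d4) lacks the segment from Hoxd1 to Hoxd4. Del(sub-TAD1) lacks a regulatory domain beside HoxD together with Mtx2, whose loss was covered by a fosmid transgene. Ins(2xCBS-d4d8) carries an extra cassette with a pair of CTCF sites between Hoxd4 and Hoxd8. Del(sub-TAD1) and Del(CBS1-5) ES cells came from blastocysts of mutant mice and not from the 129/SVEV line, so their genotype and their genetic background cannot be told apart here. Each mutant condition had 2 libraries, and Del(sub-TAD1) at 96 h had 3. These are bulk libraries, in which fewer expressing cells and less RNA per cell cannot be told apart.

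Hox genes encode homeodomain transcription factors that give the embryonic axis its regional identity, and within a cluster they are switched on in the order of their positions on the chromosome. In the trunk and tail, the central genes (paralogue groups 6 to 9) come first and the posterior genes (groups 10 to 13) follow, with the group 13 genes associated with the end of axial elongation. Hox proteins of the central and posterior groups can bind DNA together with TALE cofactors, a class that includes the Pbx and Meis families. Cdx factors act upstream of central Hox genes. In stembryos this sequence runs in culture and can be sampled stage by stage.

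All 6 genes lie on the minus strand of chromosome 6 (mm10) within 54593 bases. In that order the bounds in the deposited table were chr6:52206288-52208722 for Hoxa6 (ENSMUSG00000043219), chr6:52214498-52221854 for Hoxa7 (ENSMUSG00000038236), chr6:52223100-52227370 for Hoxa9 (ENSMUSG00000038227), chr6:52231197-52240854 for Hoxa10 (ENSMUSG00000000938), chr6:52242106-52245810 for Hoxa11 (ENSMUSG00000038210) and chr6:52257694-52260880 for Hoxa13 (ENSMUSG00000038203). Neighbouring members were 1245 to 11883 bases apart, and the widest gap separated Hoxa11 from Hoxa13. Opposite-strand transcripts overlap 3 members: Hoxaas3 runs across Hoxa6 and into Hoxa7, and Hoxa11os overlaps Hoxa11. Hoxa3, on the same strand as the members, also has bounds that span Hoxa6. The library kit kept the strand, but the strand setting of the quantification is not given in the sources used here, so reads of a member and of its antisense partner may have been split between them.

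RefSeq start sites for the 6 members (GRCm38.p6) gave 7 promoter windows, each with 250 bases before the start and 50 after it. The Hoxa7, Hoxa10, Hoxa11 and Hoxa13 windows are shown because the results below turn on the early member Hoxa7, on the later pair Hoxa10 and Hoxa11, and on Hoxa13, which stayed near 0. Capitals mark TTTATG (read on both strands as a Cdx-type motif), TATAAA and CCAAT or their reverse complements. The windows are written 5′ to 3′ along the genes, from chr6:52218524-52218823 (Hoxa7), chr6:52234890-52235189 (the downstream of 2 Hoxa10 starts), chr6:52245761-52246060 (Hoxa11) and chr6:52260831-52261130 (Hoxa13), all on the minus strand.
Hoxa7: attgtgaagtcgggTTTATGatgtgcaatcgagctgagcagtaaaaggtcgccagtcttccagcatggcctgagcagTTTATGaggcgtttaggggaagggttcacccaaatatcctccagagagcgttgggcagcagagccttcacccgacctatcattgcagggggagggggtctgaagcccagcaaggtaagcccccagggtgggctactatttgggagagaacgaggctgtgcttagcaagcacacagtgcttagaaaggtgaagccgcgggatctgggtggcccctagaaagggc
Hoxa10: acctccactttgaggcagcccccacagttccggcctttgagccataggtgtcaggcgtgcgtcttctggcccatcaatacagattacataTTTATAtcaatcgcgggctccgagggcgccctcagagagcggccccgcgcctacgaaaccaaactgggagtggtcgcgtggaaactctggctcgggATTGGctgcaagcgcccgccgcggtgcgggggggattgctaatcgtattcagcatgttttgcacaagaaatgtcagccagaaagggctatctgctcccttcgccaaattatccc
Hoxa11: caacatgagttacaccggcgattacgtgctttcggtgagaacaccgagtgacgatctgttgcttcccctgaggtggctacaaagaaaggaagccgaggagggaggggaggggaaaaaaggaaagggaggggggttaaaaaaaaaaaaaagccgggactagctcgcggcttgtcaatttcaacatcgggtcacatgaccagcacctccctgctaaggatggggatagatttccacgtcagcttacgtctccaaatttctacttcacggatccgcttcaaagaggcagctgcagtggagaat
Hoxa13: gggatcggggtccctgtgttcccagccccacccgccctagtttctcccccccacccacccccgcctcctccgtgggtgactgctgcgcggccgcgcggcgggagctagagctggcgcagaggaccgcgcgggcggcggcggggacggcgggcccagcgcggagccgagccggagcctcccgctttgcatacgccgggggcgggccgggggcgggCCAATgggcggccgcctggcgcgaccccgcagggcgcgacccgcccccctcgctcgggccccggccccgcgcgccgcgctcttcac

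The Hoxa7 window held 2 copies of TTTATG, which no other member window held and which 11.9% of 32851 mouse promoter windows of this length contain. The window of the downstream Hoxa10 start held TATAAA (13.6% of all windows) and CCAAT (37.4% of all windows), and the Hoxa13 and Hoxa6 windows also held CCAAT. None of the 7 windows held the Meis and Pknox motif TGACAG (19.2% of all windows) or the Pbx motif TGATTGAT (0.746% of all windows). These short words overlap no other searched word in the member windows, except that TTTATG and the reverse complement of TATAAA share their first letters. CpG dinucleotides numbered 45 in the Hoxa13 window, 26 in that of Hoxa6, 21 and 12 in those of Hoxa10, 15 in that of Hoxa11, 9 in that of Hoxa7 and 4 in that of Hoxa9, against a median of 7 over all windows. The letters describe the windows and were not tested against any measurement.

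Values are FPKM (fragments per length of transcript, scaled to the mapped fragments of the library) as the authors deposited them. FPKM corrects for transcript length, so levels of different members can be set side by side. Depth, inferred from the steps that single fragments leave in low values, was 15000000 to 39000000 fragments per library with a median of 23950000. At these depths, 3 fragments correspond to at most 0.28 FPKM for Hoxa6, 0.157 for Hoxa10, 0.094 for Hoxa11 and 0.0895 for Hoxa13, and values below those limits are not separated from 0. The libraries were split by the summed FPKM of Rpl and Rps pseudogenes and of predicted genes with Gm symbols. A first set of 28 had sums of 106044 to 141523, and a second set of 33 had 7612 to 24698. Of the wt controls at 96 h and 120 h, replicates 1 to 3 belonged to the first set and replicate 4 to the second. All time-course libraries and the wt libraries of 144 h belonged to the second set. Within the time course, replicate 2 at 96 h and replicate 1 at 120 h read lower for several members than their partner libraries. Fold changes and tests refer to limma on log2(FPKM + 0.1) over 17098 genes with Benjamini-Hochberg adjusted p-values, and this scale understates the change of low genes. Hoxa13 never reached a stage mean of 1 FPKM and did not enter that fit. "Called" below means an adjusted p under 0.05.

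Over the time course the members switched on in the order of their positions except for Hoxa6, and the last member had barely started at 168 h. Counting a member as on once both libraries of a stage reached 1 FPKM, Hoxa7 and Hoxa9 had their onset at 108 h, Hoxa6, Hoxa10 and Hoxa11 at 132 h, and Hoxa13 did not reach it by 168 h. A threshold of 2 FPKM gave the same onset for all 6, and the lowest threshold tried, 0.5 FPKM, moved Hoxa6 and Hoxa10 to 108 h. Between 72 h and 168 h all 5 tested members were called higher, where 25.3% of all tested genes were called higher. Between consecutive stages 5 of 35 tests of members were called, all higher. In 5 of the 7 steps 0 of 5 tested members were called, with 3 unadjusted p-values under 0.05 among the 25 tests (limma). In those steps the percentage of all tested genes called in either direction was 16.3% from 72 h to 84 h, 20.7% from 84 h to 96 h, 7.06% from 108 h to 120 h, 5.42% from 132 h to 144 h and 9.87% from 144 h to 168 h.

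Hoxa6, the first of the central genes on the chromosome, was expressed weakly throughout. It was listed at 0 in both 72 h libraries, at 0.203 and 0.0585 FPKM at 84 h and at 0.435 and 0.0658 FPKM at 96 h. It read 0.984 and 1.15 FPKM at 108 h, 0.786 and 3.72 at 120 h, 3.77 and 3.24 at 132 h, 2.59 and 2.53 at 144 h, and 5.29 and 3.19 at 168 h. Both libraries of each stage from 108 h on lay above those of 96 h. The 108 h pair lay below the pairs of 132 h, 144 h and 168 h, and the 144 h pair below those of 132 h and 168 h. The 132 h and 168 h pairs overlapped, and the 120 h pair overlapped each of the others from 108 h on. The step from 96 h to 108 h was called (log2 difference 1.96, SE 0.57, adjusted p 0.0242, limma), and it was 1 of 3 members called there, Hoxa6, Hoxa9 and Hoxa10, where 4.49% of all tested genes were called higher. Without the replicate 2 libraries of the time course the Hoxa6 step was 1.02 and not called (adjusted p 0.725, limma). It was lost in 3 of 10 alternatives. No other pair of neighbours in the order of its stage means was called.

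Hoxa7, a central gene used in the thoracic region, had the highest FPKM of the members from 108 h to 168 h. It was listed at 0.136 and 0 FPKM at 72 h, at 0 in both libraries at 84 h, and at 25.5 and 0 at 96 h. From 108 h on the pairs of libraries read 40.2 and 50.9 FPKM, then 24.1 and 63.8 at 120 h, 51.1 and 56.9 at 132 h, 42.7 and 43.2 at 144 h, and 37.5 and 36.3 at 168 h. All 10 libraries from 108 h on lay above the 72 h and 84 h libraries. The pairs of 132 h, 144 h and 168 h fell in that order without overlap, though neither step was called. The 120 h pair spanned all of them. The step from 96 h to 108 h was not called (adjusted p 0.0862, limma), with 1 of the 96 h libraries listed at 0 and the other at 25.5 FPKM. In the order of stage means, 168 h and 96 h were neighbours that differed (adjusted p 0.043, limma). Against 72 h the difference at 168 h was 7.91 on the log2 scale (SE 1.79, adjusted p 0.00031, limma).

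The 0 values of Hoxa7 need care, since they come without intermediate values. Hoxa7 was listed at 0 in 14 of 61 libraries, of which 11 were among the 21 libraries of 96 h, and in 0 of the 36 later libraries. The other 10 libraries of 96 h read 11.2 to 28.9 FPKM. In all 11 of those 0 values the deposited confidence interval was also 0 and the estimate was marked as successful. Hoxaas3, the antisense transcript that overlaps Hoxa7, read 15.1 to 167 FPKM (median 71.6) in the libraries of 96 h with Hoxa7 at 0 and 77.8 to 183 FPKM (median 129) in the 10 others. Hoxa9, its neighbour on the other side, read 0 to 2.05 FPKM (median 0.337) in the former and 0.214 to 2.08 (median 0.615) in the latter. With Hoxa7 at 0, wt replicate 3 and both Del(CBS1-5) libraries read 167, 160 and 139 FPKM of Hoxaas3. Their Hoxa9 values were 1.77, 2.05 and 1.80 FPKM. These libraries lay above the medians of the 10 others for both genes, and the remaining libraries at 0 lay below those medians. Hoxa3 was listed at 0 in wt replicate 4 of 120 h and at 18.6, 18.4 and 14.98 FPKM in replicates 1 to 3. Hoxaas3 was at 0 in both 168 h libraries, after 84.97 and 84.21 FPKM at 144 h in the time course. The gene models of Hoxa4 in the same cluster gave 0 in 58 of 61 libraries. Whether a 0 of Hoxa7 at 96 h stands for no transcript or for fragments assigned elsewhere was not tested, and each result that rests on such a 0 is given with its libraries.

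**Figure D1:**
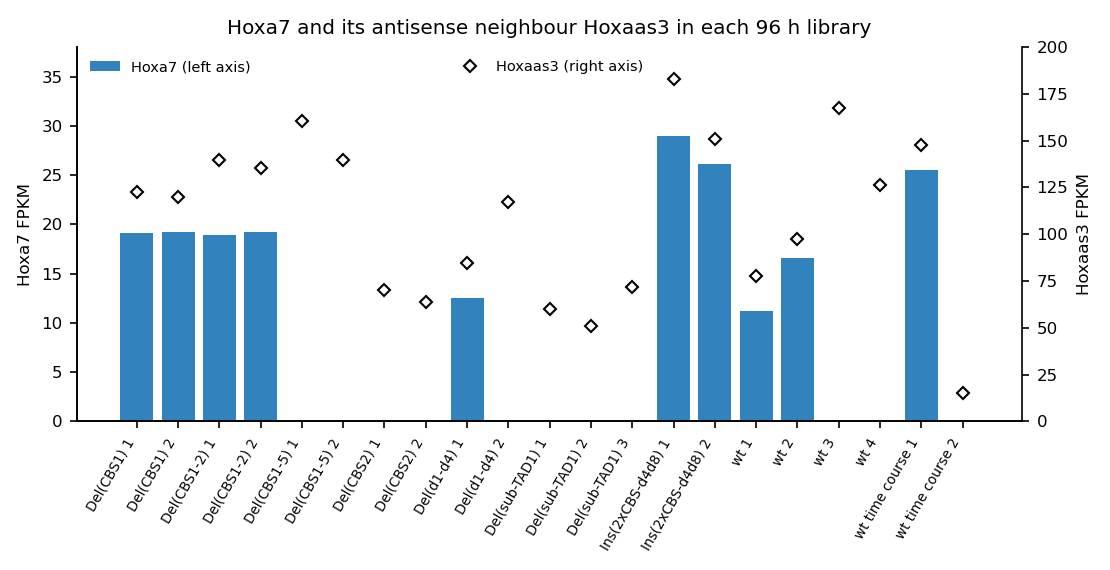
Hoxa7 FPKM (left axis) and Hoxaas3 FPKM (right axis) in each of the 21 libraries of 96 h, by condition. Hoxa7 was at 0 in 11 libraries and between 11.2 and 28.9 FPKM in the other 10, while Hoxaas3 was above 15 FPKM in all 21.

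Hoxa9, a central gene at the border to the posterior group, rose steeply between 96 h and 108 h. It was listed at 0 in both 72 h libraries, at 0.137 and 0.068 FPKM at 84 h, and at 1.33 and 0 FPKM at 96 h. It then read 6.99 and 16.5 FPKM at 108 h, 4.29 and 29.3 at 120 h, 29.1 and 26.6 at 132 h, 24.3 and 26.7 at 144 h, and 32.5 and 28.8 at 168 h. All libraries from 108 h on lay above those of 96 h, and the 168 h libraries overlapped those of 132 h. The step from 96 h to 108 h was 4.84 on the log2 scale (SE 0.70, adjusted p 1.24e-05, limma) and was called in 10 of 10 alternatives, with values from 2.31 without replicate 2 of the time course to 7.37 without replicate 1. At 120 h, replicate 1 was lower than either 108 h library and replicate 2 was higher than either.

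Hoxa10, the first of the posterior genes, rose in 2 called steps. It read 0 and 0.368 FPKM at 72 h, 0.0793 and 0.0661 at 84 h, and 0.208 and 0.183 at 96 h. It read 0.863 and 1.2 FPKM at 108 h, 0.812 and 8.53 at 120 h, 19.6 and 18.4 at 132 h, 19.0 and 22.7 at 144 h, and 34.6 and 30.3 at 168 h. The libraries of 108 h lay above those of 96 h, those of 132 h above those of 120 h, and those of 168 h above those of 144 h. The first step was 1.93 on the log2 scale (SE 0.57, adjusted p 0.0273, limma) and the second, from 120 h to 132 h, was 2.77 (SE 0.57, adjusted p 0.00511). The first step was not called without replicate 2 of the time course (log2 difference 1.65, adjusted p 0.081), with a pseudocount of 1 (adjusted p 0.168) or in a fit of the 16 time-course libraries (adjusted p 0.26). Hoxa10 and Hoxa11 were 2 members called between 120 h and 132 h, where 1.35% of all tested genes were called higher. The second Hoxa10 step was not called without replicate 1 of the time course (log2 difference 1.10, adjusted p 0.794).

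Hoxa11, a posterior gene also known for its role in the limb and the urogenital tract, was at or near 0 until 120 h. Its values at 72 h, 84 h, 96 h and 108 h were 0.061 FPKM or lower, or at most 3 fragments a library. It read 0.0603 and 0.258 FPKM at 120 h, 2.31 and 2.19 at 132 h, 5.52 and 5.2 at 144 h, and 11.4 and 8.65 at 168 h. Each pair of libraries from 132 h on lay above the pair before it. The step from 120 h to 132 h was called (log2 difference 3.29, SE 0.53, adjusted p 0.000303, limma), and without replicate 1 of the time course it was 2.67 with an adjusted p of 0.242. The later steps were not called, with adjusted p 0.207 from 132 h to 144 h and 0.368 from 144 h to 168 h. Its antisense partner Hoxa11os read 2.79 and 3.96 FPKM at 132 h, 12.9 and 14.2 at 144 h, and 28.1 and 19.9 at 168 h. The listed values of both genes rose over the same stages, though reads of this overlapping pair may have been split between them.

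Hoxa13, the terminal gene of the cluster, stayed at or below 0.487 FPKM in every library of the series. In the time course it read 0.0819 and 0.151 FPKM at 72 h, 0 in both libraries at 132 h, 0.23 and 0.245 at 144 h, and 0.452 and 0.37 at 168 h. The 168 h values correspond to 21 and 15.2 fragments. Both 144 h libraries and both 168 h libraries lay above all earlier libraries of the time course, at a level under that of any other member at 168 h.

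**Figure D2:**
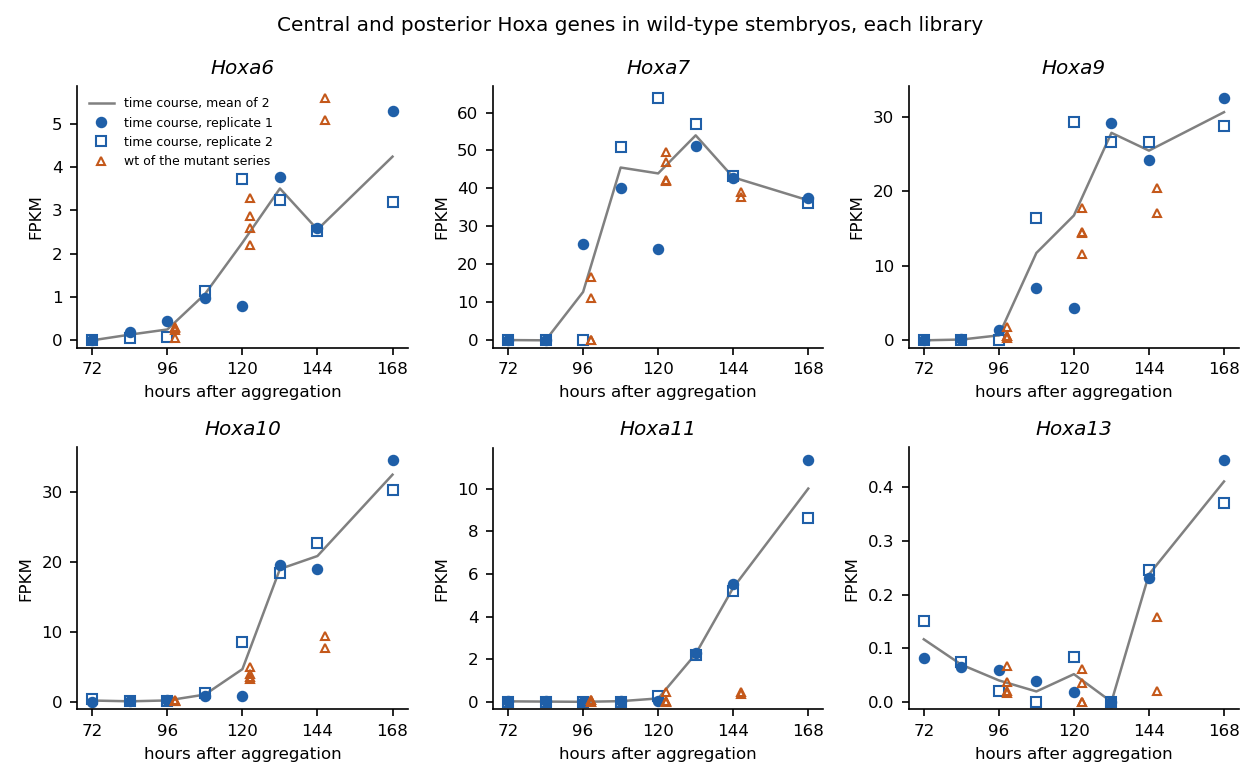
FPKM of the 6 members by hours after aggregation in wt stembryos, 1 point per library, with the time course and the separate wt libraries marked and lines through the time-course means. Both time-course libraries first reach 1 FPKM at 108 h for Hoxa7 and Hoxa9 and at 132 h for Hoxa6, Hoxa10 and Hoxa11. Hoxa13 stays below 0.5 FPKM on its own axis.

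The make-up of the 6 transcripts shifted from central to posterior members. Of the summed FPKM of the 6 members, Hoxa7 made up 81.8% and 73.0% in the 108 h libraries and 30.8% and 33.7% in the 168 h libraries. Hoxa10 made up 1.76% and 1.73% at 108 h and 28.4% and 28.2% at 168 h, and Hoxa11 0.124% and 0% at 108 h and 9.34% and 8.05% at 168 h. The Hoxa9 share was 26.7% in both libraries of 168 h, so at that stage Hoxa7, Hoxa9 and Hoxa10 were present at like levels of 36.3 to 37.5, 28.8 to 32.5 and 30.3 to 34.6 FPKM. The sum of the 6 was 49.1 and 69.7 FPKM at 108 h and 122 and 108 FPKM at 168 h.

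**Figure D3:**
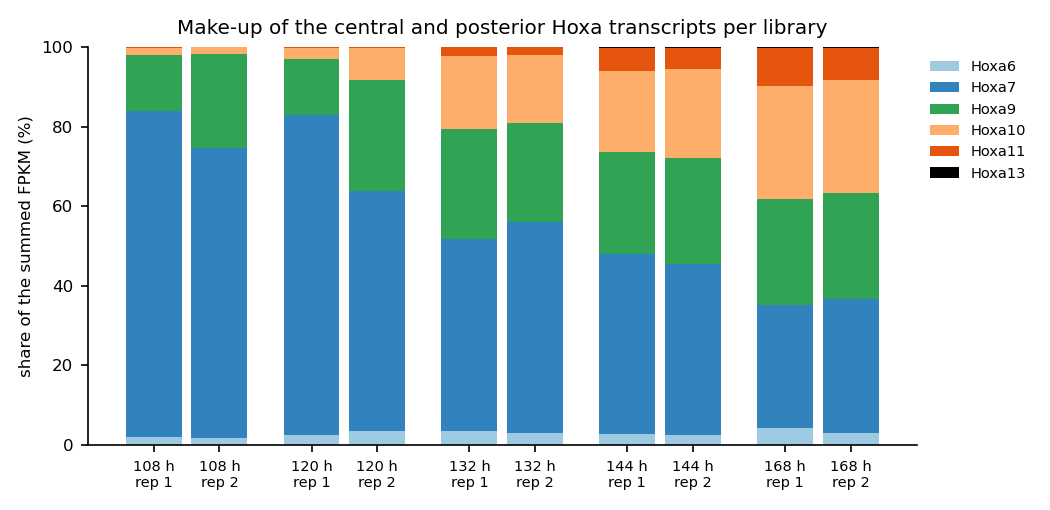
Share (%) of the summed FPKM of the 6 members taken by each member, 1 bar per time-course library from 108 h on. The Hoxa7 share falls from 81.8% and 73.0% at 108 h to 30.8% and 33.7% at 168 h while the shares of Hoxa10 and Hoxa11 grow.

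The related genes of the other clusters moved with the members over the same interval. Between 72 h and 168 h, 4 of 4 tested Hoxb, 5 of 5 tested Hoxc and 5 of 5 tested Hoxd genes of the central and posterior groups were called higher, and none lower. Of the 5 anterior Hoxa genes, 3 were called higher and 1 lower. Of the 9 genes of the TALE cofactors (the Pbx, Meis and Pknox families), 7 were called higher and 1 lower, and of the 3 Cdx genes 1 was called higher and 1 lower. The list of trunk-to-tail timing genes, 4 in all, had 1 called higher and 2 lower. The median log2 difference over all tested genes was 0.

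The separate wt libraries also showed a rise from 96 h to 120 h, in other libraries than those of the time course. Hoxa9 read 0.567, 0.61, 1.77 and 0.265 FPKM at 96 h and 14.6, 14.5, 17.7 and 11.5 at 120 h. Hoxa10 read 0.158, 0.096, 0.172 and 0.262 FPKM at 96 h and 3.93, 3.59, 4.97 and 3.22 at 120 h. Neither gene overlapped between the stages, and the log2 differences were 4.27 (SE 0.50, adjusted p 1.44e-08, limma) and 3.90 (SE 0.41, adjusted p 1.24e-09). Hoxa6 rose from 0.284, 0.229, 0.307 and 0.0648 FPKM to 2.60, 2.87, 3.29 and 2.21 (log2 difference 3.21, adjusted p 8.01e-08, limma). Hoxa7 read 11.2, 16.6, 0 and 0 FPKM at 96 h and 47.1, 49.5, 42.0 and 42.2 at 120 h (adjusted p 0.00139, limma). These were 4 of the 5 tested members, where 15.6% of all tested genes were called higher. The 4 calls were kept in all of their 11 alternatives. Between these libraries and the time course at 96 h and at 120 h, 0 of 5 tested members were called and 0 had an unadjusted p under 0.05 (limma), where 32.3% and 30.1% of all tested genes were called in either direction. The time course belonged to the second library set, and the separate libraries of these stages, except replicate 4, to the first.

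Hoxa11 separated the wt libraries of 144 h from the time-course libraries of the same labelled stage. It read 0.347 and 0.469 FPKM in the former (18.7 and 21.4 fragments) and 5.52 and 5.2 FPKM in the latter. The libraries did not overlap, and the difference was -3.44 on the log2 scale (SE 0.53, adjusted p 1.08e-05, limma), a 10.8-fold lower level, which was kept in 11 of 11 alternatives. Hoxa11 was the 1 member of 5 called, where 11.2% of all tested genes were called lower. Hoxa10 read 7.70 and 9.41 FPKM against 19.0 and 22.7 and was not called (log2 difference -1.28, adjusted p 0.116, limma). Hoxa11os read 1.2 and 1.0 FPKM against 12.9 and 14.2. Of the tested Hoxd genes 3 of 5 were called lower, of the Hoxc genes 2 of 5 and of the Cdx genes 3 of 3. The age estimated from the time course was 157 to 158 h for the wt libraries of 144 h. It was 144 h for the time-course pair, which is itself part of that reference, so this estimate is not independent of its label. Summed pluripotency markers (Pou5f1, Nanog, Zfp42, Klf2 and Esrrb) were 2.76 to 5.24 FPKM in the former and 33.8 to 36.1 in the latter, with 4 of the 5 called lower. Their part in the Hoxa11 difference was not tested. From 120 h to 144 h in the separate wt libraries Hoxa11 was called higher by 1.58 (SE 0.46, adjusted p 0.00594, limma), where 18.0% of all tested genes were called higher, although its 120 h libraries, at 0, 0, 0.439 and 0.0488 FPKM, overlapped those of 144 h. That call was lost without wt replicate 1 or 2 at these stages and in a fit of the wt libraries alone.

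Against the stage-matched wt, the 17 mutant conditions gave 6 calls in 85 tests of the 5 tested members. They were Hoxa7 in Del(sub-TAD1) and Ins(2xCBS-d4d8) at 96 h, Hoxa9 in Del(sub-TAD1) at 96 h, Hoxa10 in Del(sub-TAD1) at 120 h, and Hoxa11 in Del(CBS1-5) at 120 h and 144 h. In 12 of the 17 conditions no tested member was called, with 10 unadjusted p-values under 0.05 among their 60 tests (limma). At 96 h the percentage of all tested genes called in either direction was 1.23% in Del(CBS1), 4.49% in Del(CBS1-2), 0.298% in Del(CBS2), 1.19% in Del(d1-d4), 14.8% in Del(CBS1-5), 27.9% in Ins(2xCBS-d4d8) and 40.0% in Del(sub-TAD1). At 120 h it was 2.1% in Del(CBS1), 2.35% in Del(CBS1-2), 0.193% in Del(CBS2), 1.85% in Del(d1-d4) and 37.5% in Del(CBS4). Del(sub-TAD1) at 96 h, Ins(2xCBS-d4d8) and Del(CBS4) belonged to the second library set, unlike wt replicates 1 to 3. The other mutants of 96 h and 120 h belonged to the first. In the shares of the former, the edit and the library set cannot be told apart. The plot of log2 differences marks the 6 calls.

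**Figure D4:**
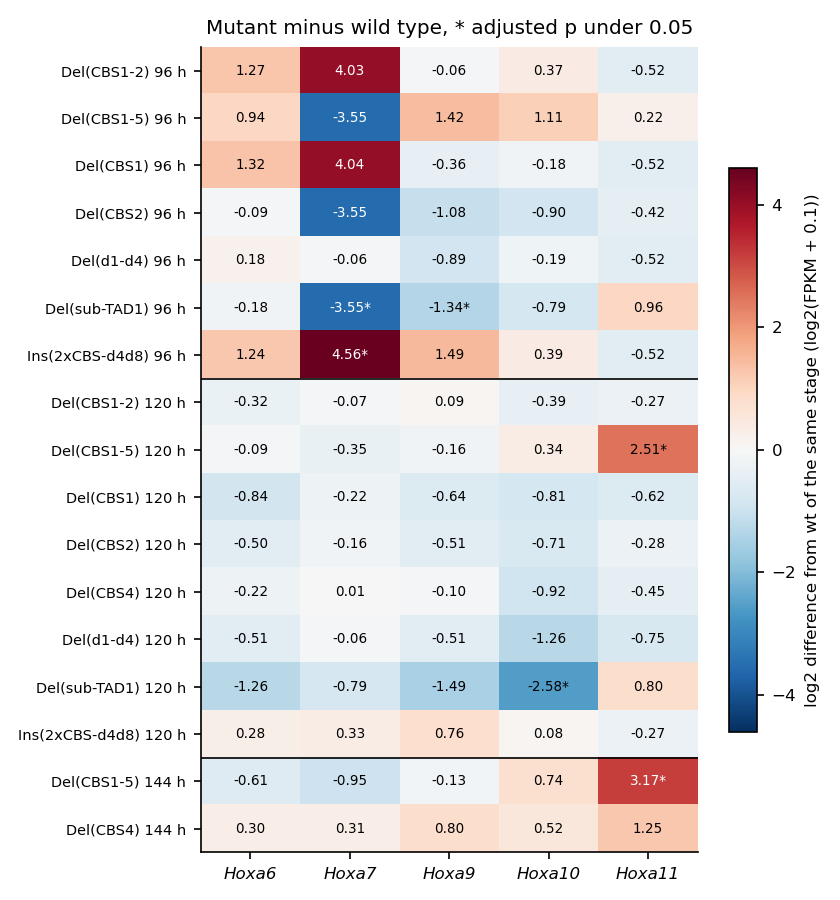
Log2 difference from wt of the same stage, on log2(FPKM + 0.1), for the 5 tested members (columns) in the 17 mutant conditions (rows), with a star for an adjusted p under 0.05. The 6 stars lie in Del(sub-TAD1), Del(CBS1-5) and Ins(2xCBS-d4d8), and the wide range of Hoxa7 at 96 h, from -3.55 to 4.56, rests on libraries listed at 0.

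Hoxa10 was lower in Del(sub-TAD1) at 120 h than in any other library of that stage. It read 0.544 and 0.583 FPKM in the mutant and 3.93, 3.59, 4.97 and 3.22 FPKM in wt, with no overlap. The difference was -2.58 on the log2 scale (SE 0.50, adjusted p 0.000928, limma), a 5.99-fold lower level. It was the 1 member of 5 called, where 2.82% of all tested genes were called lower. The call was kept in 15 of 17 alternatives. It kept its size against the 3 controls of the same library set (log2 difference -2.67, adjusted p 0.0015) and was lost, at a like size, only when 1 of the mutant libraries was left out (adjusted p 0.223 and 0.286). Hoxa6, Hoxa7 and Hoxa9 also lay below all 4 separate wt libraries without being called, where 10.9% of all tested genes lay below them. Time-course replicate 1 of 120 h was lower still for these 3 genes, at 0.786, 24.1 and 4.29 FPKM in that order. Hoxa9 read 5.21 and 4.90 FPKM against 11.5 to 17.7 (log2 difference -1.49, adjusted p 0.155, limma), Hoxa6 0.813 and 1.41 against 2.21 to 3.29 (log2 difference -1.26, adjusted p 0.137), and Hoxa7 25.1 and 27.1 against 42.0 to 49.5.

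Hoxa11, the next posterior gene, was not called in Del(sub-TAD1) at 120 h. It read 0.172 and 0.215 FPKM, within the wt range of 0 to 0.439. Of the other clusters' genes, Hoxc10 and Hoxd9 had log2 differences of -2.62 and -2.60, and 1 of 5 tested Hoxc and 3 of 5 tested Hoxd genes were called lower. Of all tested genes, 3.33% were called higher in this mutant at 120 h. Among the marker lists, 3 of 5 endoderm genes were called higher, with a summed level of 96.4 to 107 FPKM against 31.5 to 188 in wt and no gene of that list under 1 FPKM. Of 5 spinal cord genes 2 were called higher (summed 10.8 to 12.5 FPKM against 9.17 to 27.4), of 5 presomitic mesoderm genes 1 was called lower (71.7 to 71.9 FPKM against 65.6 to 113), and of 5 pluripotency genes 0 were called. The age estimated from the time course was 126 h in both mutant libraries and 125 to 126 h in wt. The part of these marker genes in the Hoxa10 difference was not tested.

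At 120 h Hoxa10 lay below all 4 separate wt libraries in 6 of the 8 mutants. Its FPKM values were 2.31 and 2.03 in Del(CBS1), 2.95 and 2.92 in Del(CBS1-2), 1.75 and 3.09 in Del(CBS2), 1.82 and 2.21 in Del(CBS4), and 1.46 and 1.66 in Del(d1-d4). In Del(CBS1-5), with 4.62 and 5.25 FPKM, and in Ins(2xCBS-d4d8), with 3.18 and 5.30 FPKM, it overlapped wt. Only Del(sub-TAD1) was called, the difference in Del(d1-d4) being -1.26 with an adjusted p of 0.209 (limma). The time-course libraries of 120 h read 0.812 and 8.53 FPKM, so Del(sub-TAD1) alone lay below every wt library of the stage. The share of all tested genes that lay below all 4 separate wt libraries was 12.0% in Del(CBS1), 18.2% in Del(CBS1-2), 9.28% in Del(CBS2), 17.3% in Del(CBS4), 13.0% in Del(d1-d4) and 10.9% in Del(sub-TAD1). These mutants share 4 control libraries, so they are not separate repeats of the observation.

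At 96 h, before the main rise, Del(sub-TAD1) had 2 of the 5 tested members called lower, Hoxa7 and Hoxa9, where 18.1% of all tested genes were called lower. Hoxa7 was listed at 0 in all 3 mutant libraries and in 2 of the 4 wt libraries, with the others at 11.2 and 16.6 FPKM, so no fold is given. This call was lost in 9 of 16 alternatives, among them controls of the same library set (adjusted p 0.215), scaling by the Hoxb and Hoxc genes (0.161), leaving out wt replicate 1 (0.195) or 2 (0.224), and leaving out any 1 mutant library (0.0773 to 0.216). Hoxa9 read 0.151, 0.119 and 0.382 FPKM against 0.567, 0.61, 1.77 and 0.265 and overlapped wt. The Hoxa9 difference was -1.34 on the log2 scale (SE 0.54, adjusted p 0.0449, limma) and was lost in 11 of 16 alternatives, among them scaling by the Hoxb and Hoxc genes (-0.27, adjusted p 0.725). At this stage 4 of 4 tested Hoxb genes were called lower too. The 3 mutant libraries had an estimated age of 91 to 92 h, against 92 to 101 h in wt. Of all tested genes, 21.8% were called higher in this mutant at 96 h. Of 5 pluripotency genes 4 were called higher, with a summed level of 66.8 to 206 FPKM against 30.1 to 112 and no gene of the list under 1 FPKM. Of 5 endoderm genes, 4 were called higher and 1 lower, with a summed level of 267 to 621 FPKM against 152 to 213. Their part in the Hoxa9 and Hoxa7 differences was not tested. Hoxa10 at 96 h was not called (0, 0.101 and 0.0794 FPKM, adjusted p 0.152), and these values lie at or near the level of 3 fragments. Hoxa11 read 0.54, 0.129 and 0.0476 FPKM against 0, 0, 0.103 and 0.108 and was not called (adjusted p 0.0554, limma). The difference between the Hoxa10 effects at 120 h and 96 h was -1.79 (SE 0.66, adjusted p 0.0457, limma), the 1 call among 45 tests of such differences, where 8.39% of all tested genes had a lower effect at 120 h. It was lost in 9 of 16 alternatives.

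Hoxa11 was higher in Del(CBS1-5) than in the stage-matched wt at 120 h and 144 h. At 120 h it read 0.843 and 0.875 FPKM (49.4 and 48.1 fragments) in the mutant against 0, 0, 0.439 and 0.0488 FPKM (0, 0, 23.9 and 2.3 fragments) in wt, with no overlap. The difference was 2.51 on the log2 scale (SE 0.46, adjusted p 0.000381, limma), and Hoxa11 was the 1 member of 5 called, where 6.42% of all tested genes were called higher. The call was kept in 14 of 16 alternatives and was lost when 1 of the mutant libraries was left out. At 144 h it read 4.56 and 4.35 FPKM (183.3 and 189.7 fragments) against 0.347 and 0.469. That difference was 3.17 (SE 0.53, adjusted p 1.75e-05, limma), a 9.03-fold higher level, and Hoxa11 was again the 1 member called, where 15.5% of all tested genes were called higher. The Hoxa11 values of the mutant were below the 5.52 and 5.2 FPKM of the time-course libraries of 144 h. With these added to the controls the difference was 1.46 and not called (adjusted p 0.114). The controls of the same library set are those same 4 libraries, and the call was kept in the other 15 of 17 alternatives. At 96 h, Hoxa11 read 0.0628 and 0.0715 FPKM in the mutant and 0 to 0.108 in wt. Hoxa9 at 96 h read 2.05 and 1.80 FPKM in Del(CBS1-5), just above the highest wt library at 1.77, and was not called (adjusted p 0.118, limma).

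The antisense partner of Hoxa11 was higher in Del(CBS1-5) than in the separate wt libraries at 144 h, and genes of the other clusters differed in direction. Hoxa11os read 3.55 and 5.10 FPKM at 144 h against 1.2 and 1.0 in those libraries, and was called (log2 difference 1.89, limma). Both mutant values were below the 12.9 and 14.2 FPKM of the time-course libraries of 144 h. At 120 h Hoxa11os read 0.424 and 0.606 FPKM in the mutant and overlapped wt, at 0.021 to 0.583. The Hoxd genes, whose cluster is the edited one, had 3 of 5 tested members called higher at both stages, and Hoxc11, in an unedited cluster, was higher by 1.44 at 120 h and 3.58 at 144 h and was the 1 called of 5 tested Hoxc genes. The Hoxb genes of the central and posterior groups were not called, and their summed level was 112 FPKM in both mutant libraries of 120 h against 148 to 206 in wt, and 75.2 to 75.4 FPKM at 144 h against 188 to 189. The summed Hoxc level was also below wt, at 40.1 to 42.1 FPKM against 57.5 to 76.3 at 120 h and at 65.6 to 66.2 against 75.7 to 83.8 at 144 h. The median shift of the Hoxb and Hoxc genes at 144 h was -0.82 on the log2 scale. Cdx2, which encodes a caudal-type factor, had log2 differences of -0.96 at 120 h and -1.86 at 144 h. Of the pluripotency markers, 4 of 5 were called higher at 120 h and 5 of 5 at 144 h, with summed levels of 144 to 163 FPKM against 8.75 to 89.4 and of 273 FPKM against 2.76 to 5.24. No gene of that list was under 1 FPKM in the mutant, and 4 were under 1 FPKM in wt at 144 h. Of 5 spinal cord genes, 4 were called lower at 144 h, with a summed level of 25.4 to 27.2 FPKM against 80.8 to 89.1, and of 4 tested endothelium genes 4 were called higher at 120 h, with a summed level of 10.5 to 13.2 FPKM against 1.55 to 3.55. The estimated age was 115 to 125 h in the mutant at 120 h and 137 to 138 h at 144 h, against 125 to 126 h and 157 to 158 h in wt. Their part in the Hoxa11 differences was not tested.

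No tested member besides Hoxa11 was called in Del(CBS1-5) at 144 h. Hoxa10 read 15.5 and 13.2 FPKM at 144 h against 7.70 and 9.41, above both separate wt libraries, like 37.7% of all tested genes. It was not called (log2 difference 0.74, adjusted p 0.422, limma), and it was below the time-course libraries of 144 h, at 19.0 and 22.7 FPKM. Hoxa9 read 17.9 and 16.4 FPKM against 17.1 and 20.5 and overlapped wt. Hoxa7 read 19.2 and 20.4 FPKM against 39.1 and 37.7, below both wt libraries, like 25.2% of all tested genes, and not called, and it was called when the Hoxa7 values listed at 0 elsewhere were treated as missing (log2 difference -0.95, adjusted p 0.0149). Hoxa13 read 0.176 and 0.487 FPKM against 0.159 and 0.0208.

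**Figure D5:**
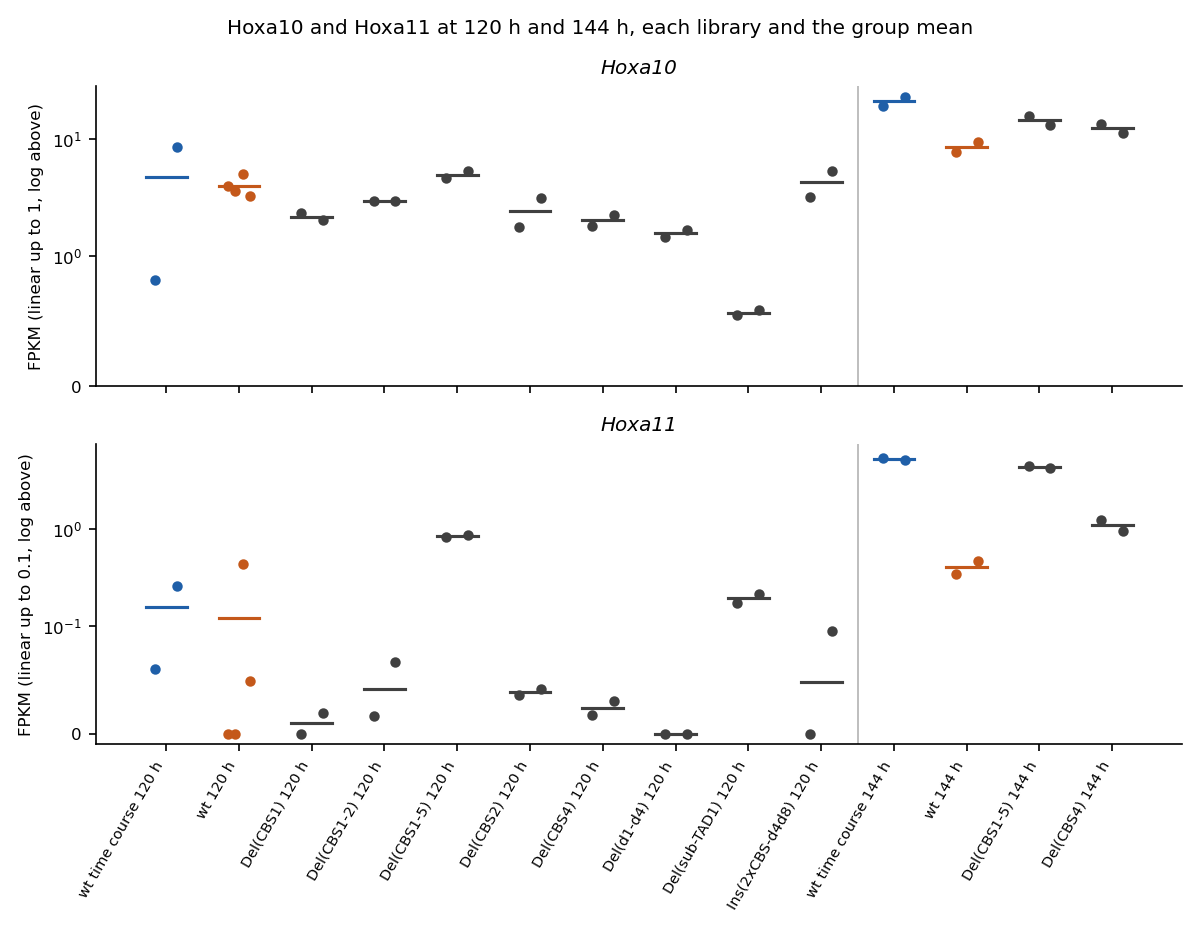
Hoxa10 and Hoxa11 FPKM at 120 h and 144 h, 1 point per library with a bar at the group mean, by condition, on axes that are linear near 0 and logarithmic above. Hoxa10 lies lowest in Del(sub-TAD1) at 120 h (0.544 and 0.583 FPKM) and Hoxa11 highest among the 120 h groups in Del(CBS1-5) (0.843 and 0.875 FPKM).

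Del(CBS4) at 144 h also had higher levels of several members than the separate wt libraries, without a call. Hoxa11 read 1.25 and 0.957 FPKM, between those wt libraries and Del(CBS1-5) with no overlap with either. Hoxa9 read 35.1 and 30.2 FPKM against 17.1 and 20.5. Hoxa10 read 13.3 and 11.2 FPKM, Hoxa6 7.02 and 6.15, and Hoxa7 47.6 and 47.9, all above the separate wt libraries. Of all tested genes, 28% (4795 of 17098) lay above both of those libraries. None of the 5 tested members was called there, 1 having an unadjusted p under 0.05, and 2.05% of all tested genes were called in either direction. The estimated age of these libraries was 127 to 136 h. The time-course libraries of 144 h lay above Del(CBS4) for Hoxa11 (5.52 and 5.2 FPKM) and Hoxa10 (19.0 and 22.7 FPKM). They lay below it for Hoxa9 (24.3 and 26.7 FPKM), Hoxa7 (42.7 and 43.2 FPKM) and Hoxa6 (2.59 and 2.53 FPKM).

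Ins(2xCBS-d4d8) gave the highest Hoxa7 and Hoxa9 values among the mutants at 120 h. At 96 h Hoxa7 read 28.9 and 26.1 FPKM against 11.2, 16.6, 0 and 0 in wt, above every wt library, and was called (adjusted p 0.0257, limma), where 12.2% of all tested genes were called higher. With the 0 values treated as missing the difference was 1.01 on the log2 scale and called (adjusted p 0.0101). The call was lost in 8 of 17 alternatives, among them the replicate block (adjusted p 0.104), scaling by the Hoxb and Hoxc genes (0.0774), the time-course libraries added to the controls (0.0589), and leaving out wt replicate 3 (0.112) or 4 (0.085), both listed at 0, or either mutant library (0.378 and 0.333). Hoxa9 at 96 h read 2.08 and 1.97 FPKM, above every wt library, like 19.7% of all tested genes, and was not called. At 120 h Hoxa7 read 51.8 and 62.4 FPKM and Hoxa9 21 and 28.6, above all of the separate wt libraries, like 16.4% of all tested genes. Time-course replicate 2 of 120 h was higher still, at 63.8 FPKM of Hoxa7 and 29.3 of Hoxa9. Neither gene was called in Ins(2xCBS-d4d8) at 120 h, and 0 of 5 tested members had an unadjusted p under 0.05. In that condition 26.9% of all tested genes were called in either direction.

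In Del(CBS1), Del(CBS1-2), Del(CBS2) and Del(d1-d4) no tested member was called at 96 h or 120 h, nor in Del(CBS4) at 120 h. Hoxa7 at 96 h read 19.1 and 19.2 FPKM in Del(CBS1), 18.9 and 19.2 in Del(CBS1-2), 12.6 and 0 in Del(d1-d4), and 0 in both libraries of Del(CBS2) as in both of Del(CBS1-5). At 120 h it read 39.5 and 38.1 FPKM in Del(CBS1), 43.6 and 42.1 in Del(CBS1-2), 37.7 and 43.0 in Del(CBS2), 44.5 and 46.4 in Del(CBS4), and 42.6 and 43.6 in Del(d1-d4). At 120 h these lines spanned 37.7 to 46.4 FPKM of Hoxa7, below or within the 42.0 to 49.5 FPKM of wt. Hoxa9 at 120 h read 10.1 and 8.38 FPKM in Del(CBS1) and 8.08 and 12.6 in Del(d1-d4), against 11.5 to 17.7 in wt. Hoxa11 was listed at 0 in both Del(d1-d4) libraries of 120 h, as in 2 of the 4 wt libraries. Over all 16 mutant libraries of 120 h Hoxa13 read 0 to 0.224 FPKM, with a median of 0.0176.

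With the Hox genes themselves left out, the genes whose log2(FPKM + 0.1) followed each member most closely over the 16 time-course libraries were ranked among 9569 genes. The Pearson correlation describes a shared change over stages, since all points share the same libraries. It was highest with Sall2 (0.982), Igsf9 (0.978) and Cuedc1 (0.977) for Hoxa6, with Cnih2 (0.972), Slc38a1 and Igsf9 for Hoxa7, and with Igsf9 (0.988), Trim2 (0.985) and Lrrn3 (0.981) for Hoxa9. For Hoxa10 it was highest with Plagl1 (0.994), Sox1 (0.979) and Scube2 (0.978). For Hoxa11 the closest genes were its antisense partner Hoxa11os (0.989), which lies in the HoxA cluster, Ptprd (0.980) and Pou3f2 (0.980). For Hoxa13, at its low level, they were Mreg (0.907), Susd4 (0.888) and Vta1 (0.881). Among the members themselves the correlation was 0.981 between Hoxa6 and Hoxa9, 0.950 between Hoxa7 and Hoxa9, 0.919 between Hoxa10 and Hoxa11, and 0.580 between Hoxa7 and Hoxa11.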

How the data were processed

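RNA from pooled stembryos of 61 libraries in 28 conditions was analysed, and non-elongating stembryos had been left out by the authors from 108 h on. Per the labels and the study's methods, the authors made stranded poly-A libraries and read 75 bases from each end. Adapters were removed with cutadapt 1.16, alignment to mm10 used STAR 2.7.7a, and uniquely mapped reads went into Cufflinks 2.2.1 at its default settings with a custom gene annotation built on Ensembl release 102. The values deposited by the authors are FPKM per gene, already scaled to mapped fragments and transcript length, and were used without further scaling. Conditions and replicate numbers came from the sample titles.

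limma 3.58.1 (R 4.3.3) was fitted to log2(FPKM + 0.1) in all 61 libraries with 1 coefficient per condition, without a variance trend, over the 17098 genes with a mean of at least 1 FPKM in at least 1 condition. Tests were two-sided, with Benjamini-Hochberg adjustment over all tested genes per comparison and a threshold of 0.05. The script was tested on simulated data. Depth (15000000 to 39000000 fragments) was inferred from single-fragment steps, and 71.3% to 98.2% of low values were whole within 0.02 fragments. An age was the hour, interpolated between stages of the time course, with the smallest summed squared difference over 1000 non-Hox genes. Fragment counts and limits cover counting error only. Low values of Hoxa7 and Hoxa9 gave no such limit, since these genes have several transcripts. Promoter windows came from RefSeq, and all 6 members matched. Gene bounds were those of the deposited table. They were compared with GENCODE vM21, whose bounds are wider for Hoxa3, Hoxa7 and Hoxa9. Named genes were the members, the 3 genes most correlated with each and, from each list, the largest changes. The rule for members reads gene symbols alone, but it, the lists and the tests were set with earlier results of these data known. Alternatives changed the pseudocount, filter, scaling, controls, fitted libraries, replicate block and each replicate in turn. Treating Hoxa7 zeros as missing and leaving out a pair of time-course libraries were chosen after seeing the data.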

Additional observations from a re-analysis of the deposited data

Results flagged for a closer look

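Hoxa11 in the wt libraries of 120 h had a highest library far from the other 3, with 0.439 FPKM (23.9 fragments) against 0, 0 and 0.0488 FPKM. The gap was 0.8889 of the whole range, above Dixon's 95% limit for 4 libraries. That limit is passed by chance in about 1 of 20 groups, and 12 groups were examined. In the same library Hoxa11os was also the highest of the 4, with 0.583 FPKM against 0.021 to 0.217.

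The effect of Del(sub-TAD1) on Hoxa10 differed between stages by -1.792 on the log2 scale (adjusted p 0.0457, limma), from -0.79 at 96 h to -2.58 at 120 h. The 96 h libraries of this mutant belong to the second library set and the 120 h libraries to the first, so stage and set cannot be told apart within the mutant. Against controls of the same set the difference was -1.63 with an adjusted p of 0.239.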

How the results depend on the processing

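The calls for members between consecutive stages of the time course, 5 in the analysis as reported, became 8 with a pseudocount of 1 and 2 in a fit of the 16 time-course libraries, and ranged from 5 to 6 when a replicate was left out. The mutant calls, 6 as reported, ranged from 1 to 9 when a mutant or wt replicate was left out, 1 being reached without mutant replicate 1 or without mutant replicate 2, which leave most mutants with 1 library assumed to vary like the other groups. The 1 call among differences of effect between stages became 5 with a pseudocount of 1, 0 with no filter on low values, 0 with controls of the same library set, 0 with the time-course libraries added to the controls, and ranged from 0 to 1 when a replicate was left out. The 6 calls among the wt libraries outside the time course became 10 with a pseudocount of 1 and ranged from 5 to 7 when a replicate was left out. Of the 6 onsets, 4 were kept at a threshold of 0.5 FPKM, 3 at 50% of the highest stage mean, and 4 without replicate 1 or without replicate 2 of the time course. No difference of a called member changed sign. The cause of these shifts was not tested. Same-numbered libraries did not deviate together (median correlation 0.0108 in the time course), so the numbers mark no pairs, and the replicate block gave 6, 8, 1 and 7 calls for the comparisons in the order above. The fit of the compared groups alone gave 51 of the 85 mutant tests, since its filter removed the others, and Hoxa7 in Del(sub-TAD1) at 96 h could not be computed with its zeros missing. Hoxa13 was tested only with no filter. Depth limits Hoxa11 and Hoxa13 before 120 h, where values amount to a few fragments.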
